A study of Mus musculus with 9 samples.

Results

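The genes described here are *Trp53*, which encodes the transcription factor p53, and 9 genes that p53 is known to activate: *Mdm2*, *Cdkn1a*, *Ccng1*, *Bbc3*, *Pmaip1*, *Bax*, *Trp53inp1*, *Sesn2* and *Zmat3*. They were taken by gene symbol from a count table of 54232 mouse genes, and all 10 were found, each with enough counts to be tested in every comparison. RNA-seq had been performed on 9 libraries. Naïve mouse embryonic stem cells (mESCs) were cultured in serum/LIF medium on feeders, and primed epiblast stem cells (mEpiSCs), converted from them, were cultured in medium with FGF2 and Activin A, also on feeders. Both states were sampled at passage 5 (P5) and passage 15 (P15), with 2 libraries for each state and passage, and the remaining library was from mouse embryonic fibroblasts (MEFs), the cell type that served as the feeder. All libraries are labelled C57 x CBA, and in the study's methods the stem cell line of this cross carries GFP driven by the distal *Oct4* promoter. A change of state was thus also a change of medium. The feeders were treated with mitomycin C, a DNA cross-linking drug that stops their division, and whether the MEF library came from treated cells is not stated.

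p53 is kept at a low level in unstressed cells because MDM2, a ubiquitin ligase, marks it for degradation. DNA damage and other stresses interrupt this and let p53 accumulate and switch on genes that arrest the cell cycle, repair DNA, adjust metabolism or start apoptosis. *Mdm2* is itself such a target, which closes a negative feedback loop. Much of this control acts on the protein, which RNA-seq does not measure. In mouse embryonic stem cells p53 is abundant, and the G1 arrest through p21, the product of *Cdkn1a*, is known to be weak.

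Because promoter sequences show where such a factor could act, the stretches of the targets' RefSeq promoters that hold the p53 consensus are printed here. RefSeq (GRCm38.p6, the same assembly as mm10) gave promoter windows, from 250 bases before to 50 after a transcription start, for 7 of the 10 genes. *Pmaip1*, *Trp53inp1* and *Zmat3* had no entry in that table. The windows were searched for the p53 half-site consensus, a motif of 10 letters that reads the same on both strands. Each line below gives a stretch 5′ to 3′ on the strand of the gene, with each half-site in capitals.
Cdkn1a, chr17:29090881-29090960, plus strand: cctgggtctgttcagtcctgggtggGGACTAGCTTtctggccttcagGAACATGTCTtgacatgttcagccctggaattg
Mdm2, chr10:117710910-117710969, minus strand: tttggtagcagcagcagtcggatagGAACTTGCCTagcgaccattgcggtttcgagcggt
Ccng1, chr11:40755437-40755496, minus strand: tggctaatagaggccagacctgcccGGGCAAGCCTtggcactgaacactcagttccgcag
Bax, chr7:45467065-45467124, minus strand: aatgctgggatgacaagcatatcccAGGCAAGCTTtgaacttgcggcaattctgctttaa
Trp53, chr11:69580259-69580318, plus strand: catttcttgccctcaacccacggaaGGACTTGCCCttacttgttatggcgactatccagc

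None of the 5 stretches overlaps an annotated exon, and that of *Bax* lies within the gene *Gm45808*. This gene also overlaps *Bax* itself on the same strand and had 0 counts in all 9 libraries. How reads shared by the overlapping genes were counted is not stated. A half-site started at −186 from the start site in *Mdm2*, −185 in *Ccng1*, −201 in *Bax* and −75 in *Trp53*. *Cdkn1a* had a pair, starting at −73 and −51, and was the member in which 2 half-sites were separated by no more than 13 bases. Such a pair occurred in 24 of 32851 RefSeq promoter windows, or 0.0731%. At least 1 half-site was found in 5 of the members' 10 windows (50%) and in 8.36% of all windows. The windows of *Sesn2* and *Bbc3* and a second window of *Cdkn1a* had none, which says only that this consensus is not within those 300 bases. The *Cdkn1a* pair belongs to the upstream of its 2 start sites, in the window chr17:29090729-29091028. The *Cdkn1a* window without a half-site is chr17:29093519-29093818, so the pair also lies upstream of that start. Whether the pair is part of the well known upstream p53 element of *Cdkn1a* was not tested. The well known element of *Mdm2* lies outside windows of this kind, in the first intron.

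The libraries of naïve and primed cells held 14378051 to 20985136 counts and the MEF library 25646547. Levels are given as CPM, a gene's counts relative to its library's total after TMM scaling over all 9 libraries, and 3 counts correspond to 0.128 to 0.221 CPM. Marker genes followed the state labels: 7 naïve state markers summed to 1893–2319 CPM in naïve and 106.5–204.2 CPM in primed libraries, and 6 primed state markers to 340.0–352.3 and 1044–1060 CPM. The pluripotency markers *Pou5f1*, *Sox2* and *Sall4* summed to 1293–1410 CPM in naïve, 529.8–530.2 CPM in primed P5 and 896.3–924.9 CPM in primed P15 libraries, and to 1.446 CPM in MEFs. RNA of feeder type was present in every stem cell library. None of 30 fibroblast markers was at 0 in any of them, and the markers summed to 11120–11160 CPM in naïve and 6849–7000 CPM in primed cells at P5, 18190–18990 and 16160–16760 CPM at P15, and 88850 CPM in MEFs. The median marker stood at 14.1% to 25.2% of its MEF level and the lowest marker at 2.51% to 6.61%. The highest marker stood at 54.1% to 76.2% in naïve libraries. In primed libraries the highest was *Dcn*, above its MEF level, at 216% to 220% at P5 and 341% to 354% at P15. The markers thus did not give a common feeder share, and it could not be set more closely. In bulk RNA, more cells of a type and more RNA per cell cannot be told apart.

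*Trp53* (chr11:69580359-69591873, plus strand) was measured at 329.6 and 334.1 CPM in naïve cells at P5, and at 173.3 and 178.2 CPM in primed cells of the same passage. At P15 it was at 343.0 and 327.5 CPM in naïve and 286.1 and 274.9 CPM in primed cells. Both primed P5 libraries were thus far below the other 6 stem cell libraries, and primed P15 libraries were below both naïve P15 libraries. The MEF library, at 136.3 CPM, was lower than all 8. A processed pseudogene of *Trp53* had 0 counts in all 9 libraries, and the sources do not say how multi-mapping reads entered the counts.

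*Mdm2* (chr10:117688875-117710758, minus strand) fell with both state and passage. Its levels were 519.3 and 514.5 CPM in naïve P5, 392.9 and 402.0 CPM in primed P5, 371.1 and 367.2 CPM in naïve P15, and 208.0 and 215.7 CPM in primed P15 libraries, with 101.3 CPM in MEFs. The 5 groups did not overlap, and each pair of replicates differed by less than any step between groups.

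Of the genes that act on the cell cycle, *Cdkn1a* (chr17:29090976-29100727, plus strand), which encodes the CDK inhibitor p21, was highest in naïve P5 cells. It was at 566.9 and 598.5 CPM in those, 451.7 and 459.4 CPM in primed P5, 430.1 and 436.8 CPM in naïve P15, and 413.0 and 400.0 CPM in primed P15 libraries. The last 3 groups lay close to each other without overlapping, and MEFs, at 276.1 CPM, were below all of them. *Ccng1* (chr11:40748552-40755311, minus strand), encoding cyclin G1, had the smallest ratio of highest to lowest stem cell library of the 10 genes, with 527.2 and 513.2 CPM in naïve P5, 466.4 and 480.8 CPM in primed P5, 543.1 and 522.5 CPM in naïve P15, and 440.1 and 466.0 CPM in primed P15 libraries. All 4 naïve libraries were above all 4 primed ones, and MEFs were at 362.4 CPM.

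The pro-apoptotic members had different patterns. *Bbc3* (chr7:16308393-16318205, plus strand), which encodes the BH3-only protein PUMA, was at 85.5 and 80.9 CPM in naïve P5, 44.7 and 42.0 CPM in primed P5, 56.9 and 63.4 CPM in naïve P15, and 32.6 and 28.5 CPM in primed P15 libraries. *Pmaip1* (chr18:66458533-66465565, plus strand), encoding the BH3-only protein NOXA, ranged from 140.2 and 135.7 CPM in naïve P5 through 114.5 and 117.6 CPM in primed P5 and 119.0 and 109.3 CPM in naïve P15 to 94.6 and 110.4 CPM in primed P15 libraries. The naïve and primed P15 libraries of *Pmaip1* overlapped, whereas those of *Bbc3* were well apart. *Bax* (chr7:45461697-45466898, minus strand), the pore-forming effector, was at 146.2 and 158.1 CPM in naïve P5, 92.9 and 86.1 CPM in primed P5, 142.2 and 149.0 CPM in naïve P15, and 139.8 and 114.6 CPM in primed P15 libraries. As with *Trp53*, the primed P5 libraries stood below the other 6, but the primed P15 pair was spread widely. *Pou5f1*, which encodes the pluripotency factor OCT4, was also lowest in stem cells at primed P5, with 210.8 and 211.4 CPM against 612.0 and 583.5 CPM at primed P15 and 710.4 to 760.3 CPM in naïve libraries, and its part in the levels of *Trp53* and *Bax* was not tested. *Trp53inp1* (chr4:11156431-11174379, plus strand), whose product acts in p53-dependent stress responses and autophagy, was at 410.0 and 384.8 CPM, 306.8 and 321.9 CPM, 271.0 and 255.1 CPM, and 159.8 and 175.4 CPM in naïve P5, primed P5, naïve P15 and primed P15 libraries, respectively. Its groups stood in the same order as those of *Mdm2*.

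*Sesn2* (chr4:132492032-132510501, minus strand), which encodes a stress-induced inhibitor of mTORC1 signalling, was split mainly by state. It was at 198.1 and 206.7 CPM in naïve P5 and 152.3 and 156.6 CPM in naïve P15 libraries, against 71.6 and 68.6 CPM in primed P5 and 82.8 and 80.3 CPM in primed P15 libraries. The MEF library, at 119.1 CPM, lay between the states. A gene that overlaps *Sesn2*, *Gm12981*, is annotated as antisense but lies on the same strand, and it had 0 to 14 counts per library. How reads shared by overlapping genes were counted, and whether counting used the strand, is not stated. *Zmat3* (chr3:32334792-32366014, minus strand), encoding a zinc finger RNA-binding protein, was at 198.7 and 183.8 CPM in naïve P5, 158.0 and 163.3 CPM in primed P5, 159.6 and 156.5 CPM in naïve P15, and 117.7 and 132.8 CPM in primed P15 libraries. The primed P5 and naïve P15 libraries overlapped.

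**Figure D1:**
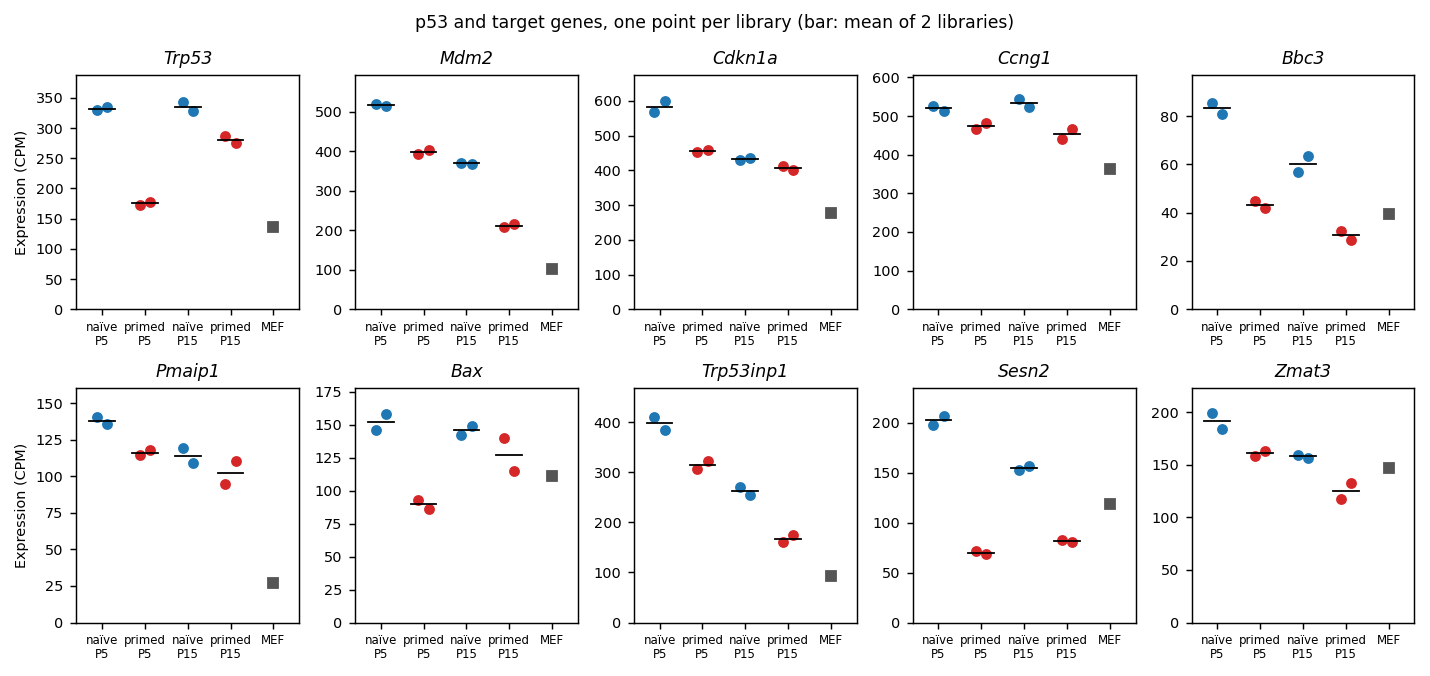
Expression (CPM, linear axes from 0) of *Trp53* and the 9 target genes in each library, with naïve cells in blue, primed cells in red, the MEF library as a grey square, and bars at the mean of 2 libraries. *Mdm2* and *Trp53inp1* step down through the 4 stem cell groups, while *Trp53* and *Bax* are lowest among stem cells in the 2 primed P5 libraries.

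MEFs had a lower level than all 8 stem cell libraries for *Trp53*, *Mdm2*, *Cdkn1a*, *Ccng1*, *Pmaip1* and *Trp53inp1*. The widest relative gap was that of *Pmaip1*, at 27.3 CPM in MEFs against 94.6 to 140.2 CPM in stem cells. For *Bbc3* (39.6 CPM in MEFs), *Bax* (111.4 CPM) and *Zmat3* (147.0 CPM), 6 of 8 stem cell libraries were above MEFs, and for *Sesn2* it was 4 of 8. With 1 MEF library there was no test. If the feeder share of each library is set at the median fibroblast marker, feeders would account for 3.28% to 12.3% of the *Mdm2* level in a stem cell library and 6.92% to 12.3% of *Trp53*. For *Bbc3* (7.79% to 34.5%), *Sesn2* (9.77% to 36.9%) and *Zmat3* (12.4% to 31.4%) the part would be larger. With the lowest marker it would be at most 6.09% for any of the 10 genes.

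Between genes, levels were compared as CPM per kilobase of exon. *Ccng1* and *Cdkn1a* were the highest of the 10 in every group, at 148.1 and 164.0 CPM per kb in naïve P5 and 129.0 and 114.4 CPM per kb in primed P15 cells. *Zmat3* was the lowest in all 4 stem cell groups, at 10.9 to 16.7 CPM per kb. *Mdm2*, at 101.7 CPM per kb in naïve P5 cells, was above *Trp53*, at 82.0 CPM per kb, and in primed P15 cells it was below, at 41.7 against 69.3 CPM per kb.

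The first question was whether p53 and its targets differ between primed and naïve cells at P5. Primed cells had a lower level of all 10 genes, each with an adjusted p below 0.01 in the edgeR fit, and in all 10 both primed libraries were below both naïve ones, as they were for 43.6% of all genes tested. Over all genes tested, 31.1% were called lower and 31.2% higher, and the median log2 fold change was −0.34 for the 10 genes against 0.0078 for all. *Sesn2* differed most, with a log2 fold change of −1.50 (SE 0.0445, adjusted p = 1.7e-22), or 2.82-fold. *Bbc3* (−0.91, SE 0.057, adjusted p = 1.02e-14), *Trp53* itself (−0.89, SE 0.037, adjusted p = 5.43e-19) and *Bax* (−0.73, SE 0.048, adjusted p = 3.04e-14) followed.

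The other members were lower by smaller amounts at P5. *Mdm2* (−0.35, SE 0.034), *Cdkn1a* (−0.32, SE 0.035) and *Trp53inp1* (−0.31, SE 0.037) were 1.24- to 1.27-fold lower, and *Zmat3* and *Pmaip1* were both at −0.22 (SE 0.042 and 0.043). The smallest difference was that of *Ccng1*, at −0.10 (SE 0.034, adjusted p = 0.00784). The call of *Ccng1* was lost in 8 of 11 alternatives, among them leaving out naïve P5 replicate 1 (adjusted p = 0.0193), primed P5 replicate 1 (0.251) or primed P5 replicate 2 (0.0518), and that of *Zmat3* without primed P5 replicate 1 (0.0127). Scaling by library size alone moves the log2 fold change of the median gene by 0.20 at P5. With that scaling 6 of the 10 genes were called lower, *Ccng1* was called higher (0.099), and *Pmaip1* (−0.015), *Zmat3* (−0.017) and *Trp53inp1* (−0.10) were not called.

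At P15, primed cells had a lower level of 7 of the 10 genes, none was higher, and all 10 log2 fold changes were below 0, with a median of −0.31 against −0.0039 for all genes. No member was higher at either passage at an unadjusted p below 0.05 or by DESeq2. The background was 28.4% of genes lower and 28.2% higher. *Bbc3* (−0.99, SE 0.087, adjusted p = 1.74e-12), *Sesn2* (−0.93, SE 0.064, adjusted p = 2.4e-15), *Mdm2* (−0.81, SE 0.057, adjusted p = 4.22e-15) and *Trp53inp1* (−0.66, SE 0.062, adjusted p = 8.56e-12) were 1.58- to 1.99-fold lower. *Zmat3* (−0.35, SE 0.065), *Trp53* (−0.27, SE 0.057) and *Ccng1* (−0.24, SE 0.055) were lower by less.

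The other 3 genes did not pass at P15. The interval of the log2 fold change was −0.22 to 0.0079 for *Cdkn1a* (−0.10, adjusted p = 0.0955), −0.31 to −0.021 for *Pmaip1* (−0.17, adjusted p = 0.0397) and −0.35 to −0.062 for *Bax* (−0.21, adjusted p = 0.0112). *Bax* passed in 6 of 12 alternatives, among them those without naïve P15 replicate 1 (adjusted p = 0.00348) or primed P15 replicate 1 (−0.33, adjusted p = 0.000115), and *Pmaip1* without naïve P15 replicate 2 (−0.25, adjusted p = 0.00605) or primed P15 replicate 2 (−0.25, adjusted p = 0.00533). *Ccng1* was not called without primed P15 replicate 1 (adjusted p = 0.0206), and *Trp53* was not called at P15 with the feeder share subtracted (−0.22, adjusted p = 0.0127). Neither of these was called with library size alone (*Trp53* −0.16 and *Ccng1* −0.14), where *Cdkn1a* was at 0.0014.

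**Figure D2:**
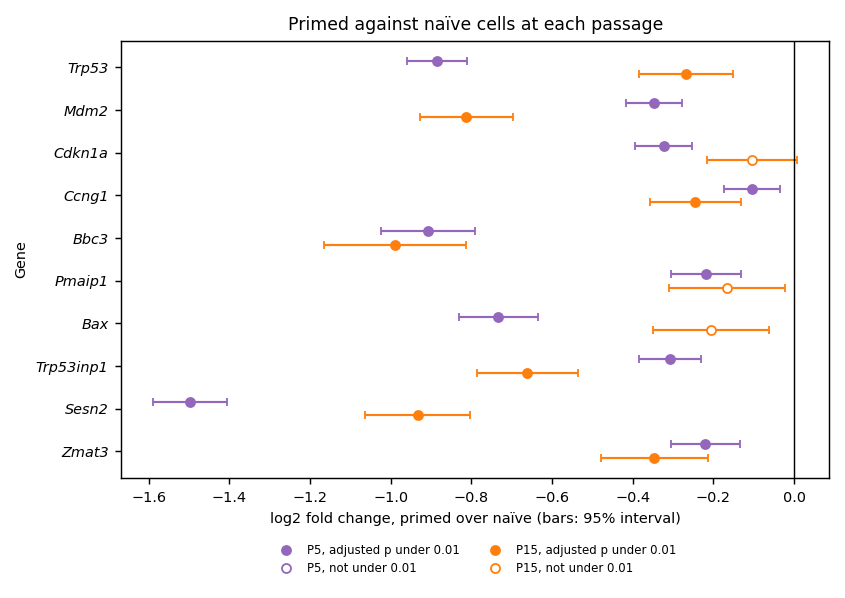
Log2 fold change of primed over naïve cells for each gene at P5 (purple) and P15 (orange), with 95% intervals from the edgeR fit, where filled points have an adjusted p below 0.01. All points lie below 0, from −1.50 for *Sesn2* at P5 to −0.10, and *Cdkn1a*, *Pmaip1* and *Bax* are open at P15.

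The difference between passages in the effect of state was tested as an interaction over the 8 stem cell libraries. A positive value means that primed cells stood higher relative to naïve cells at P15 than at P5. Of the 10 genes, 4 were called with a positive difference, against 13.3% of all genes, and 2 with a negative one, against 10.8%. *Trp53* (0.63, SE 0.064, adjusted p = 1.91e-09), *Sesn2* (0.58, SE 0.075, adjusted p = 2.84e-07) and *Bax* (0.54, SE 0.093, adjusted p = 2.58e-05) were less reduced in primed cells at P15. *Cdkn1a* had a smaller positive difference (0.24, SE 0.059, adjusted p = 0.00225), which was not called without naïve P5 replicate 2 (0.0249), primed P5 replicate 1 (0.0496) or primed P5 replicate 2 (0.0261), nor with library size alone (0.116).

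The negative differences were those of *Mdm2* (−0.45, SE 0.060, adjusted p = 5.07e-07) and *Trp53inp1* (−0.34, SE 0.071, adjusted p = 0.000357), which were more reduced in primed cells at P15. *Trp53inp1* lost its call without naïve P5 replicate 2 (adjusted p = 0.0102) and with the feeder share subtracted (0.0189). *Ccng1* (−0.12, interval −0.25 to −0.0014), *Zmat3* (−0.11, −0.27 to 0.050), *Bbc3* (−0.067, −0.28 to 0.15) and *Pmaip1* (0.070, −0.11 to 0.25) did not pass. From P5 to P15 the state effect of *Trp53* shrank while that of *Mdm2* grew.

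Passage was then compared within each state. These comparisons use the same libraries as those between states, so they are not independent of them. In naïve cells, 7 of the 10 genes were lower at P15 than at P5 and none was higher, where 5.01% of all genes were lower and 4.21% higher. None was higher at an unadjusted p below 0.05 or by DESeq2 either. *Trp53inp1* (−0.59, SE 0.048, adjusted p = 2.8e-06), *Mdm2* (−0.48, SE 0.039, adjusted p = 2.83e-06), *Bbc3* (−0.47, SE 0.063, adjusted p = 0.000256), *Cdkn1a* (−0.43, SE 0.042, adjusted p = 1.54e-05) and *Sesn2* (−0.39, SE 0.046, adjusted p = 7.82e-05) were 1.31- to 1.51-fold lower.

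*Pmaip1* (−0.27, SE 0.054, adjusted p = 0.00382) and *Zmat3* (−0.27, SE 0.050, adjusted p = 0.00224) were also lower in naïve cells at P15. Both were lost without naïve P5 replicate 1 (adjusted p = 0.0121 and 0.0254), and with no filter on low counts (0.0276 and 0.0198), and *Pmaip1* also without naïve P15 replicate 2 (0.0175) and with the feeder share subtracted (0.0279). *Trp53* was at 0.016 (interval −0.077 to 0.11), *Ccng1* at 0.035 (−0.053 to 0.12) and *Bax* at −0.062 (−0.17 to 0.050), and the P5 and P15 libraries of these 3 genes overlapped. The median over the 10 genes was −0.33, against 0.00068 for all genes. Summed fibroblast markers were higher in naïve cells at P15 than at P5. With the feeder share subtracted, 6 of the 10 genes were lower and the median was −0.36.

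In primed cells, 6 genes were lower at P15 than at P5 and 2 were higher, where 22.8% of all genes were lower and 24.3% higher. *Mdm2* and *Trp53inp1* were each at −0.94 (SE 0.048 and 0.053, adjusted p = 2.64e-15 and 2.06e-14), or 1.92-fold lower. *Bbc3* (−0.54, SE 0.081) and *Zmat3* (−0.39, SE 0.058) fell by less. The 2 genes that rose were *Trp53* (0.64, SE 0.050, adjusted p = 1.82e-11), 1.56-fold, and *Bax* (0.48, SE 0.070, adjusted p = 1.86e-06), 1.39-fold.

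*Pmaip1* (−0.21, SE 0.063, adjusted p = 0.00543) and *Cdkn1a* (−0.20, SE 0.046, adjusted p = 0.000666) were lower too. *Pmaip1* was lost without primed P5 replicate 2 (0.0267), without primed P15 replicate 1 (−0.10, adjusted p = 0.116), by the DESeq2 Wald test (0.0205) and with the feeder share subtracted (−0.069, adjusted p = 0.480). *Cdkn1a* was lost without primed P5 replicate 2 (0.0120) and with the feeder share subtracted (0.0408). *Sesn2* (0.19, adjusted p = 0.0102) and *Ccng1* (−0.096, adjusted p = 0.0808) did not pass, and each did without primed P15 replicate 2 (adjusted p = 0.00226 and 0.00799). The 6 genes lower in primed cells, *Mdm2*, *Cdkn1a*, *Bbc3*, *Pmaip1*, *Trp53inp1* and *Zmat3*, were all among the 7 lower in naïve cells, the remaining one being *Sesn2*.

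**Figure D3:**
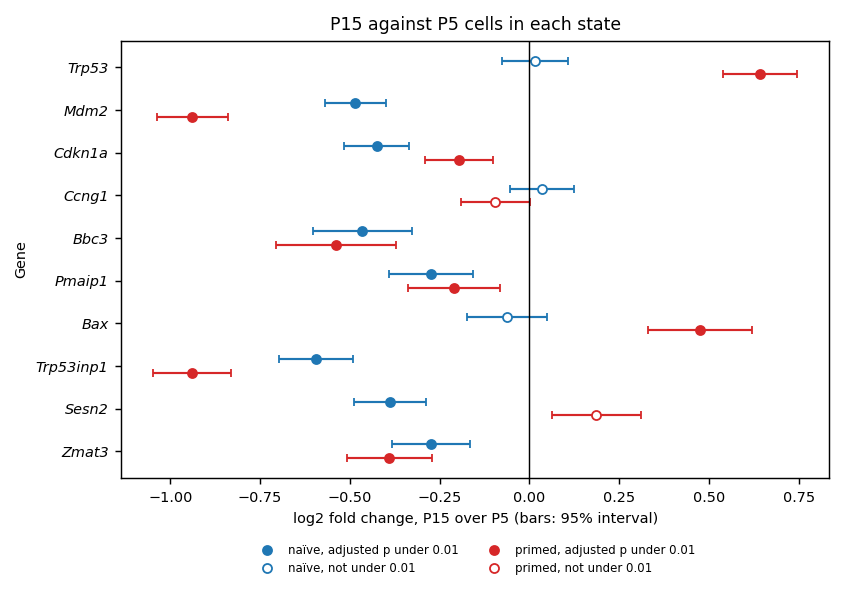
Log2 fold change of P15 over P5 for each gene in naïve (blue) and primed cells (red), with 95% intervals from the edgeR fit, where filled points have an adjusted p below 0.01. *Mdm2* and *Trp53inp1* lie furthest below 0 in primed cells, both at −0.94, where *Trp53* and *Bax* lie above 0 at 0.64 and 0.48.

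The ratio of *Mdm2* to *Trp53* counts, which does not depend on how libraries are scaled, was 1.58 and 1.54 in naïve P5 libraries, 2.27 and 2.26 in primed P5, 1.08 and 1.12 in naïve P15, and 0.727 and 0.785 in primed P15 libraries, and 0.743 in MEFs. The order of the states was thus opposite at the 2 passages, with primed above naïve at P5 and below it at P15. With the feeder share subtracted, the group ratios were 1.62, 2.45, 1.13 and 0.758. *Trp53inp1* per *Trp53* had the same order, at 1.24 and 1.15, 1.77 and 1.81, 0.790 and 0.779, and 0.558 and 0.638. At P5 the ratios of *Cdkn1a*, *Ccng1*, *Pmaip1*, *Bax* and *Zmat3* were also higher in both primed libraries, while that of *Sesn2* was lower and that of *Bbc3* overlapped. At P15 *Cdkn1a* per *Trp53* was higher in primed (1.444 and 1.455) than in naïve libraries (1.254 and 1.334). The P15 ratios of *Sesn2* and *Bbc3* were lower in primed libraries, and those of *Ccng1*, *Pmaip1*, *Bax* and *Zmat3* overlapped. *Bax* per *Trp53* stayed within 0.414 to 0.536 in all 8 stem cell libraries, the highest being primed P5 replicate 1 and the lowest naïve P15 replicate 1, and was 0.817 in MEFs.

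**Figure D4:**
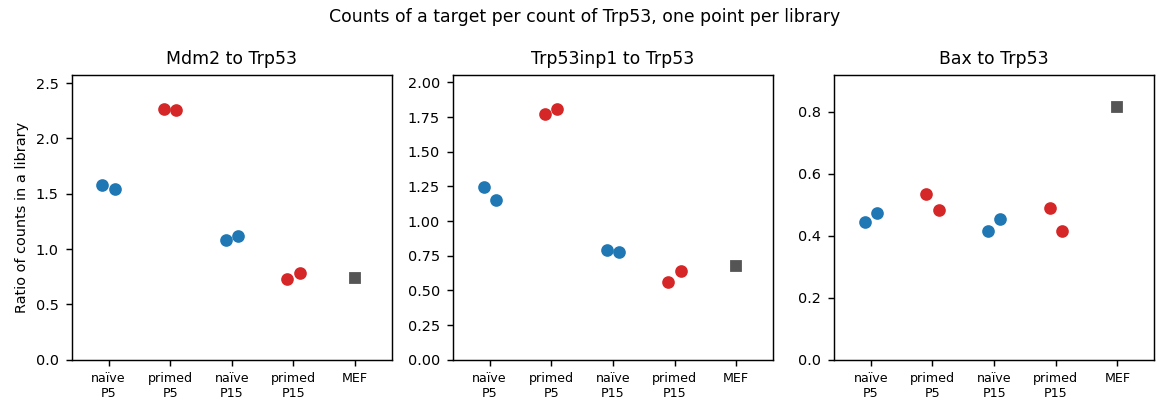
Counts of *Mdm2*, *Trp53inp1* and *Bax* per count of *Trp53* in each library (ratio, axes from 0), with naïve cells in blue, primed cells in red and the MEF library as a grey square. For *Mdm2* and *Trp53inp1* the primed libraries are the highest at P5 and the lowest stem cell libraries at P15, whereas the *Bax* ratio stays between 0.414 and 0.536 in stem cells.

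The other regulators and targets of p53 were described through a list of 77 genes. At P5, 33 of them were lower in primed cells and 25 higher, and at P15 32 were lower and 19 higher, with medians of −0.089 and −0.19. Of all genes tested, 31.1% were lower and 31.2% higher at P5, and 28.4% and 28.2% at P15. With library size alone the balance of the list at P5 turned to 26 lower and 34 higher, with a median of 0.11. At P15 it was 28 lower and 24 higher. All genes moved the same way at P5, to 3547 lower and 6810 higher of 16482, with a median of 0.21. Of 26 regulators of p53, 14 were lower and 4 higher at P5, and 13 and 4 at P15. Here and below, genes outside the naming rule were chosen after their values were seen. The regulators that were lower included *Sirt1*, a deacetylase of p53 (−1.51, SE 0.056 at P5 and −1.48, SE 0.080 at P15), *Usp7*, a deubiquitinase of p53 and MDM2 (−0.93, SE 0.036 and −0.96, SE 0.058), and the checkpoint kinase genes *Chek2* (−0.94, SE 0.073 and −0.97, SE 0.096) and *Chek1* (−0.65, SE 0.067 and −0.71, SE 0.082).

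*Mdm4*, which encodes the MDM2 relative that inhibits p53, was at 152.9 and 152.8 CPM in naïve P5 and 156.6 and 153.6 CPM in primed P5 libraries, and at 131.0 and 131.7 CPM against 80.3 and 88.2 CPM at P15. It did not pass at P5 (0.053, adjusted p = 0.237) and was lower in primed cells at P15 (−0.65, SE 0.066, adjusted p = 8.4e-11), a difference that was itself called (−0.69, SE 0.075, adjusted p = 1.08e-08). *Cdkn2a*, whose alternative product p19ARF inhibits MDM2, was higher in primed cells at both passages, at 20.5 and 21.1 against 12.2 and 13.5 CPM at P5 (0.72, SE 0.10) and 36.2 and 33.5 against 15.4 and 19.8 CPM at P15 (0.97, SE 0.11). Gene-level counts do not separate the 2 products of *Cdkn2a*, p16INK4a and p19ARF. *Trp53bp1* was also higher at both passages (0.31, SE 0.051 and 0.39, SE 0.069), as was *Trp53bp2* at P5 (0.46, SE 0.062).

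The p53 relatives were low. *Trp63* had 1 and 5 counts in naïve P5, 19 and 11 in primed P5, 13 and 12 in primed P15 and 11 in MEF libraries, and 0 in both naïve P15 libraries, so that at P15 it was at least 3.46-fold higher in primed cells, taking 3 counts in each naïve library as the limit. *Trp73* had 44 to 109 counts in stem cells and 1 in MEFs. It did not pass at P5 (−0.17, adjusted p = 0.472) and was higher in primed cells at P15 (0.76, SE 0.23, adjusted p = 0.00447), a call lost in 6 of 12 alternatives, with an adjusted p of up to 0.101 without primed P15 replicate 1.

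Among 10 other cell cycle targets, 6 were lower and 1 higher at P5, and 8 were lower and 2 higher at P15. The shares over all genes tested were 31.1% lower and 31.2% higher at P5, and 28.4% and 28.2% at P15. *Btg2*, an antiproliferative gene, was at 410.1 and 398.8 CPM in naïve and 133.7 and 144.9 CPM in primed P5 libraries (−1.51, SE 0.040, adjusted p = 8.46e-24), and at 282.0 and 285.3 against 101.9 and 99.0 CPM at P15 (−1.51, SE 0.061). The stress-responsive polo-like kinase genes *Plk2* (−1.28, SE 0.042 at P5 and −1.15, SE 0.065 at P15) and *Plk3* (−1.64, SE 0.076 and −1.84, SE 0.090) were lower as well. *Plk2* was higher in the MEF library, at 347.5 CPM, than in any stem cell library, and with the feeder share subtracted it was at −1.98 at P5 and −7.51 at P15. The latter value depends on the prior count of the fit, since the subtraction left 0 and 22 counts in the primed P15 libraries. *Rprm* was higher at both passages (1.17, SE 0.15 and 1.31, SE 0.15), and *Ccnd1*, encoding cyclin D1, was lower at P5 (−0.26) and higher at P15 (0.33).

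The 15 other apoptosis targets were divided, with 7 higher and 6 lower at P5, and 5 higher and 4 lower at P15. Over all genes tested, 31.2% were higher and 31.1% lower at P5, and 28.2% and 28.4% at P15. *Trp53i11* was at 29.6 and 29.2 CPM in naïve and 101.0 and 100.7 CPM in primed P5 libraries (1.81, SE 0.056, adjusted p = 4.75e-22) and was also higher at P15 (1.63, SE 0.085). *Shisa5* was higher at P5 (0.65, SE 0.042) and more so at P15 (1.27, SE 0.064). *Fas*, which encodes a death receptor, was higher at both passages (1.25, SE 0.14 and 1.17, SE 0.15). *Eda2r*, another receptor gene of the TNF receptor superfamily, was lower (−0.69, SE 0.048 and −0.73, SE 0.071).

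Of 6 repair targets, *Polk* (0.44) and *Ercc5* (0.45) were higher at P5 and none was lower. At P15 *Xpc* (−0.48) and *Polk* (−0.37) were lower and none higher. All genes tested gave 31.2% higher and 31.1% lower at P5, and 28.2% and 28.4% at P15. The 2 repair targets called at each passage were thus near the share of all genes on that side. At an unadjusted p below 0.05, 0 repair targets were lower at P5 and 1 was higher at P15, and DESeq2 called 0 of either. DESeq2 called 2 repair targets higher at P5 and 1 lower at P15. Of 12 metabolic and stress targets, 5 were higher and 5 lower at P5. *Tigar*, whose product lowers glycolytic flux (−1.23, SE 0.074 at P5 and −1.45, SE 0.087 at P15), and the glutaminase gene *Gls2* (−1.25, SE 0.091 and −1.65, SE 0.13) were lower at both passages. *Gdf15*, a stress-induced cytokine gene, was higher in primed cells at P5 (0.79, SE 0.11) and lower at P15 (−0.63, SE 0.17), and this difference was called (−1.41, SE 0.20).

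Of the 8 secreted and surface targets, 6 were higher in primed cells at P5 and 5 at P15. The metastasis suppressor gene *Cd82* was higher in primed cells (2.27, SE 0.11 and 2.54, SE 0.15), as were the peptide transporter gene *Tap1* (1.11, SE 0.064 and 1.90, SE 0.091) and *Lif* (1.40, SE 0.052 and 1.04, SE 0.085). With the feeder share subtracted, *Cd82* was at 3.45 at P5 and 5.28 at P15, where 18 and 0 counts were left in the naïve libraries. *Lif* encodes the cytokine that was added to the medium of the naïve cells alone.

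**Figure D5:**
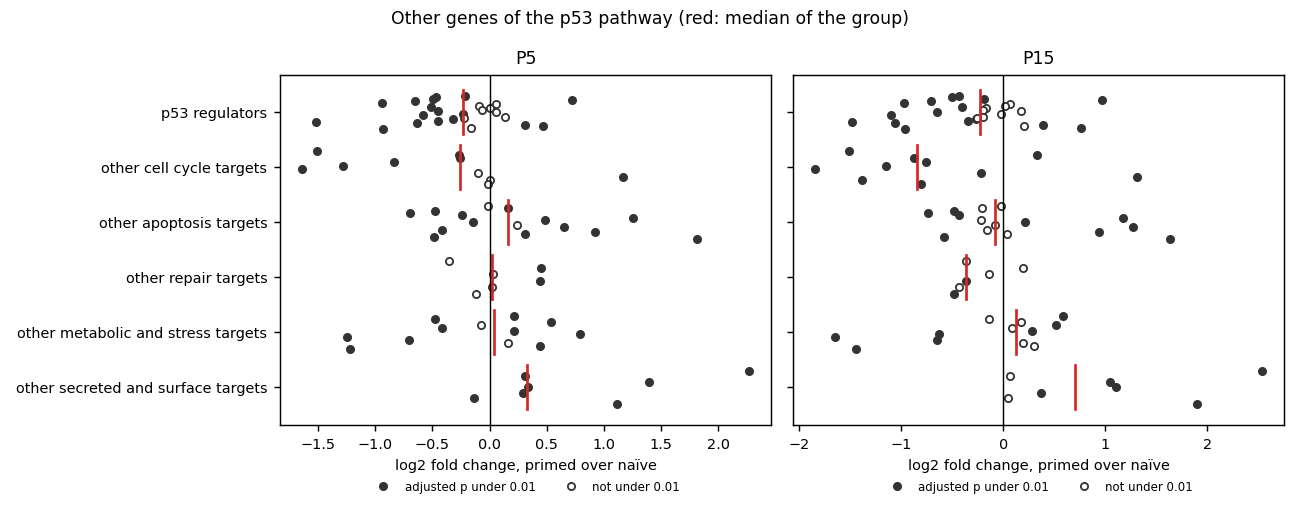
Log2 fold change of primed over naïve cells at P5 (left) and P15 (right) for the other genes of the p53 pathway, in rows by role, where filled points have an adjusted p below 0.01 and red bars are medians of the group. Regulators and other cell cycle targets lie mostly below 0, apoptosis and metabolic targets on both sides and surface targets mostly above 0, the highest being *Cd82*, at 2.54 at P15 (*Trp63* and 1 other gene are in the medians but not drawn).

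With passage, the same list had 16 genes lower and 4 higher in naïve cells among 76 tested, and 29 lower and 15 higher in primed cells among 77. Of all genes tested, 5.01% were lower and 4.21% higher in naïve cells, and 22.8% and 24.3% in primed cells. The 4 genes that rose in naïve cells were *Gadd45a* (0.60), *Tigar* (0.31), *Ccnd1* (0.24) and *Gpx1* (0.23). With library size alone primed cells had 38 lower and 8 higher, where 4910 of all genes were lower and 2554 higher. Of the 6 repair targets, none passed in naïve cells by edgeR or by DESeq2 and 1 was lower at an unadjusted p below 0.05. In primed cells 4 were lower at P15, namely *Polk* (−0.82, SE 0.080), *Rrm2b* (−0.59, SE 0.12), *Xpc* (−0.51, SE 0.096) and *Ercc5* (−0.22, SE 0.067). DESeq2 called 3 repair targets lower in primed cells at P15. *Mdm4* fell in both states (−0.22, SE 0.046 in naïve and −0.91, SE 0.057 in primed cells), and *Cdkn2a* rose in primed cells (0.71, SE 0.087) and did not pass in naïve cells (0.46, adjusted p = 0.0289).

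The genes whose pattern was most like that of *Trp53* were sought by the distance between mean-centred log2(CPM + 1) values over the 8 stem cell libraries, among 14425 genes. They were *Eif5a* (0.0955), a translation factor gene, *Umps* (0.118), of pyrimidine synthesis, and *Ppcs* (0.140), of coenzyme A synthesis. *Eif5a* was at 1555 and 1549 CPM in naïve P5 and 836.7 and 817.6 CPM in primed P5 libraries, and at 1556 and 1537 CPM against 1283 and 1238 CPM at P15. For *Cdkn1a* they were *Eef2* (0.127), encoding a translation elongation factor, *Eya3* (0.172) and *Maff* (0.173). None of these 6 genes is on the list of 77 or among the 10 members.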

How the data were processed

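RNA was sequenced from 8 stem cell libraries (2 for each state and passage) and 1 MEF library. The authors trimmed reads with Cutadapt, aligned them to mm10 with HISAT2 (up to 20 alignments per read) and obtained counts of Ensembl genes with featureCounts. The annotation release and the strand and multi-mapping settings are not given in the sources used here. The deposited values are raw counts per gene. A total of 92 spike-in rows, all at 0, were left out. Gene names and positions are from GENCODE M21, which named 54165 of 54232 genes.

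Counts were normalized by TMM and tested with edgeR 4.0.16 (R 4.3.3) by the quasi-likelihood test, keeping genes that reached 10 counts in 2 or more libraries of the fit, Benjamini-Hochberg adjustment over all genes and calls at an adjusted p below 0.01. States were compared at each passage and passages in each state on 4 libraries, and the difference of the state effect on 8. The MEF library entered no fit. Intervals are 95%. The script was tested on simulated counts. The pair of libraries of each group differed by more than sampling noise. The study calls the repeats of its RNA-seq biological. As the labels do not tie them to separate cultures of the 1 cell line, p-values measure the spread between these libraries.

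The 10 members and the other lists were chosen with earlier results of these data known. Of the 77 other pathway genes, the rule named at each passage the 3 higher and 3 lower genes with the smallest adjusted p (mean of at least 1 CPM), plus *Mdm4*, *Cdkn2a*, *Trp63* and *Trp73* (1 gene that the rule named is not reported here); for *Trp53* and *Cdkn1a*, the 3 genes nearest in pattern. Alternatives were library size alone, DESeq2 size factors, all 8 libraries in one fit, a replicate block, no filter on low counts, subtraction of a feeder share (the median fibroblast marker's ratio to MEFs times the MEF counts), the DESeq2 1.42.0 Wald test and each replicate left out. When a lone library was left in a group, it was assumed to vary like the others.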

Additional observations from a re-analysis of the deposited data

Results flagged for a closer look

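The effect of state differed between P15 and P5, by the interaction term of the edgeR fit, for 6 of the 10 genes. On the log2 scale, primed minus naïve at P15 less the same at P5 was 0.63 for *Trp53*, 0.58 for *Sesn2*, 0.54 for *Bax* and 0.24 for *Cdkn1a*, and −0.45 for *Mdm2* and −0.34 for *Trp53inp1*. *Trp53*, *Mdm2*, *Bax* and *Sesn2* kept an adjusted p below 0.01 in all 14 alternatives, the highest being 3.72e-06, 0.000394, 0.00315 and 0.00032. Of the other pathway genes named by rule, the difference was called for *Tap1* (0.80), *Shisa5* (0.64), *Mdm4* (−0.69) and *Lif* (−0.33). That of *Lif* passed in 4 of 14 alternatives, with adjusted p from 0.000465 to 0.184. Summed fibroblast markers were higher at P15 than at P5, more so in primed cells (6849–7000 to 16160–16760 CPM) than in naïve cells (11120–11160 to 18190–18990 CPM). With the feeder share subtracted, *Trp53inp1* was not called (adjusted p = 0.0189).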

How the results depend on the processing

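No member's direction was turned with its call under any alternative except *Ccng1* at P5. Scaling by library size alone moved the median of all genes by 0.20 at P5, 0.10 at P15, −0.024 in naïve and −0.13 in primed passage, and −0.11 for the difference, and gave 6810 genes higher and 3547 lower at P5 in place of 5147 and 5127, 2554 and 4910 in primed passage in place of 3874 and 3644, and 1402 and 2585 for the difference in place of 2243 and 1836. With library size alone, members at P5 were 6 lower and 1 higher (*Ccng1*, 0.099). With the same scaling *Trp73* at P5 was 0.036, *Cdkn1a* at P15 0.0014, *Trp53* in naïve passage −0.0086, and for the difference *Pmaip1* was −0.045 and *Btg2* −0.10. Library size alone also gave 8 wider-list genes higher in primed passage (15 before) and 19 lower for the difference (10 before). In naïve passage, 660 genes were higher and 786 lower, against 1353 and 1430 with the replicate block, 228 and 323 with no filter and 397 and 508 with the feeder share subtracted. With no low-count filter, the wider list in naïve passage had 1 gene higher and 5 lower, and with the feeder share subtracted 10 lower. That subtraction left 1 member lower for the difference, turned *Btg2* to −0.032 and *Plk2* to −5.5 there, where the subtraction took *Plk2* counts to or near 0 in primed P15 libraries. Leaving out 1 replicate, ranges were 1 to 5 wider-list genes higher in naïve passage and 1 to 2 members lower for the difference, both lowest without naïve P5 replicate 2. The values of *Trp53* in naïve passage (−0.022 to 0.056), of *Plk3* (−0.15 to 0.035) and *Trp63* (−0.45 to 0.17) in primed passage, and of *Bbc3* (−0.16 to 0.035), *Pmaip1* (−0.038 to 0.18) and *Btg2* (−0.071 to 0.047) for the difference crossed 0, none of them called.

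Same-numbered libraries deviated together with r = −0.094 at P5, −0.12 at P15, 0.12 in naïve and 0.11 in primed cells, so the numbers were not shown to pair them. With the replicate number as a block, members lower were 9 at P5, 7 at P15, 7 in naïve and 6 in primed passage (3 higher), and 4 positive and 2 negative for the difference. Among members it ended the call of *Ccng1* at P5 (adjusted p = 0.0167), gave one to *Sesn2* in primed passage (0.00359) and changed no other. A crossed pairing at P15, chosen after seeing the data, gave 9 members lower. Among the members and the pathway genes named by the rule, the floor of 3 counts (0.128 to 0.221 CPM) limits only *Trp63* in the stem cell libraries. In the MEF library it limits *Trp73*, which had 1 count.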
